A study of Mus musculus with 10 samples.

Results

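A set of 8 G protein-coupled receptors is described here across the amacrine cells of the young mouse retina: the adrenergic receptors Adra1a, Adra1b, Adra2a, Adra2c and Adrb1, the adenosine receptors Adora1 and Adora2a, and the cannabinoid receptor Cnr1. They were chosen by family, with earlier results of these data known, and leave out some receptors of the same families. They are 8 of the 27933 gene symbols in the count tables. For each receptor the level and the share of cells with a transcript were taken per library in 7 groups of cells, each gated on UMIs (unique molecular identifiers, 1 per captured transcript) of genes other than the receptors. The Gad gate took cells with at least 2 UMIs of Gad1 plus Gad2, which make GABA, but no Slc6a9 UMI. The Slc6a9 gate asked for at least 2 UMIs of Slc6a9, the glycine transporter GlyT1, with Gad1 and Gad2 both at 0. The other 5 gates asked for at least 3 UMIs of Gjd2 (connexin 36, the gap junction protein of AII amacrine cells), 5 of Tac2 (neurokinin B), 2 of Chat plus Slc18a3 (the acetylcholine enzyme and vesicle transporter, called the cholinergic gate), 2 of Slc17a8 (the vesicular glutamate transporter VGLUT3), or 1% of a cell's UMIs from Cartpt, a neuropeptide precursor.

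The 10 libraries came from retinas at postnatal day 19 of mice carrying a cre-GFP transgene driven in retinal progenitors and bipolar cells. Dissociated cells were sorted as negative for GFP and for antibodies to CD133 and CD73, which mark photoreceptors, and as positive for the viability dye Calcein Blue. All libraries share this genotype, age and sort, and the labels give no treatment and no other grouping than 3 batches, with library 1 in batch 1, libraries 2 to 6 in batch 2 and libraries 7 to 10 in batch 3. Nothing in the labels ties a library to an animal. The p-values of the gate comparisons judge the difference between gates within a library against its spread over libraries. Those of the batch comparison rest on the spread between libraries. Either spread could be technical alone.

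Adrenergic receptors respond to noradrenaline and adrenaline. The alpha-1 type couples mainly to Gq and phospholipase C, the alpha-2 type to Gi and the beta type to Gs, which raises cyclic AMP. Adenosine, formed from ATP outside and inside cells, lowers cyclic AMP through A1 (Adora1) and raises it through A2a (Adora2a). Cnr1 encodes CB1, a Gi-coupled receptor, usually on presynaptic terminals, for lipids that neurons make on demand. In the retina dopamine from amacrine cells is the main catecholamine, and adenosine and endocannabinoids are known modulators of its synapses.

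The promoter windows of the 4 receptors the results turn on are shown first, since 3 of these receptors were all higher in Tac2 cells and the fourth was not. Each is the 250 bases before a RefSeq transcript start (GRCm38.p6, which is mm10), 5′ to 3′ on the gene's strand, with capitals marking CCAAT boxes (CCAAT or its complement ATTGG) and GC boxes (GGGCGG or its complement CCGCCC). The Adrb1 window lies at chr19:56721867-56722116 on the plus strand, that of Adra1b at chr11:43901238-43901487 on the minus strand, that of Adora1 at chr1:134235458-134235707 on the minus strand and that of Cnr1 at chr4:33924014-33924263 on the plus strand.
Adrb1: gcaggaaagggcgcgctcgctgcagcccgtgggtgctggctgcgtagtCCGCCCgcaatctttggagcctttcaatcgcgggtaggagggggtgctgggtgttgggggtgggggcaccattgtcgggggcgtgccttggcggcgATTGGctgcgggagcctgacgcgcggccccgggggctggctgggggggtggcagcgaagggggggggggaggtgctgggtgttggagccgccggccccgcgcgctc
Adra1b: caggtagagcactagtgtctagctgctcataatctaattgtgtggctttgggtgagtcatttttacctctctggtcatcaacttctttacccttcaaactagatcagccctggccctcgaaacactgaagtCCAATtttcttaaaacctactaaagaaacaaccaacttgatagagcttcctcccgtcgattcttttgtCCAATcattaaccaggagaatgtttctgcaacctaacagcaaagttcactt
Adora1: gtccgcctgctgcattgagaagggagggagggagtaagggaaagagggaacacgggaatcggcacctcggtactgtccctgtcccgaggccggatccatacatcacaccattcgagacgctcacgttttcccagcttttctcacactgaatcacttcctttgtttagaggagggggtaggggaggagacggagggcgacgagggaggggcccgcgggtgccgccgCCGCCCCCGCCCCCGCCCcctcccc
Cnr1: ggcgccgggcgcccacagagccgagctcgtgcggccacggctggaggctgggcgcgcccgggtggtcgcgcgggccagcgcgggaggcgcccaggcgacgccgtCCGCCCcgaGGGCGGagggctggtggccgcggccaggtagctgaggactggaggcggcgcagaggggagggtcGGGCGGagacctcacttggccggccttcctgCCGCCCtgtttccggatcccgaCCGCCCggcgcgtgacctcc

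RefSeq gives 2 starts for Adra1b, 2 for Adora1 and 3 for Cnr1, and the windows shown are the most upstream ones. The Adra1b window shown had 41.6% G and C, against 64.4% for Adora1, 74.0% for Adrb1 and 79.2% for Cnr1. It held 2 CCAAT boxes and no GC box, whereas Adora1 held 3 GC boxes side by side, Cnr1 held 5, and Adrb1 held 1 of each kind. The contrast holds for these windows and not for the further ones. The second Adra1b window had 72.8% G and C, with 1 GC box and no CCAAT box. The second Adora1 window (65.2% G and C) and the other Cnr1 windows (68.8% and 49.2%) held neither kind of box. Over 32851 such windows, 33.8% held a CCAAT box and 32.7% a GC box, on either strand. The 4 windows held none of the other motifs searched on both strands, which were CAGATG (in 14.4% of windows), CAGCTG (13.0%), TGACGTCA (1.55%), TATAAA (12.4%) and the EBF motif (0.779%). A match is a run of letters and not a measured site. RefSeq windows were found for 6 of the 8 receptors.

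The tables held 32523 cells, with 6302659 to 26028492 UMIs per library and a median of 3296.5 to 5717 UMIs per cell. The gates held 16415 cells (Gad), 4556 (Slc6a9), 1940 (Gjd2), 895 (Tac2), 651 (cholinergic), 666 (Slc17a8) and 1148 (Cartpt), and 30.0% of cells were in no gate. Gates overlap: 651 of the Tac2 cells, 505 of the cholinergic cells and 861 of the Cartpt cells were also in the Gad gate, and 934 of the Gjd2 cells were also in the Slc6a9 gate. Of the amacrine markers, Pax6 was found in 91.7% of cells and Slc32a1, the vesicular transporter of GABA and glycine, in 85.9%. The bipolar marker Grm6 was found in 3.58% of cells, and Prom1, which encodes CD133, in 9.44%. The Slc6a9 gate took 8.13% to 11.3% of a library's cells in batch 2 and 21.2% to 23.2% in batch 3, while the Gad gate took 48.9% to 56.5% and 45.2% to 46.5%.

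A total of 923 cell barcodes occurred in more than 1 library, in 1860 cells. Libraries 5 and 6 shared 312 of them and libraries 2 and 3 shared 59, whereas the other 43 pairs of libraries shared 3 to 32. In libraries 5 and 6 the cells with a shared barcode had a median of 12340.5 UMIs in one library and 1866 in the other. Results that lead each account below are therefore given with all cells and again without the 1860 cells.

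How many of the receptors differed between cell groups was first read against all genes. In the Slc6a9 gate against the Gad gate, 5 of the 8 receptors had enough counts to be tested, of which 1 was higher and 4 were lower, with a median log2 change of -1.80 against 0.03 over all genes. That comparison called 61.2% of the 11250 genes tested (32.1% higher, 29.1% lower), so a call alone says little and the size of a change carries the description. The other gates were set against all other cells, with the same 5 receptors tested. For Gjd2, 1 receptor was higher and 3 lower, where 48.4% of genes were called (23.9% higher, 24.5% lower). For Tac2, 3 were higher and 1 lower, where 48.3% were called (23.0% and 25.3%). The cholinergic gate had 1 higher and 4 lower (34.7% of genes called, 16.8% and 18.0%), the Slc17a8 gate 0 higher and 4 lower (25.1%, 10.6% and 14.5%) and the Cartpt gate 1 higher and 3 lower (32.3%, 16.4% and 15.9%). Changes of at least 2-fold were rarer among all genes. Upward, they took in 1 receptor for Slc6a9 against Gad (4.84% of genes), 1 for Gjd2 (2.65%), 3 for Tac2 (3.17%), 1 for Cartpt (3.10%) and none for the cholinergic (4.04%) and Slc17a8 (2.78%) gates. Downward, they took in 4 receptors for Slc6a9 against Gad (7.99%), none for Gjd2 (3.14%), 1 for Tac2 (5.15%), 3 for the cholinergic gate (7.06%), 2 for Slc17a8 (3.04%) and 2 for Cartpt (4.95%). Adra1a, Adra2a and Adora2a fell below the filter on low counts in all 6 of these comparisons and are given as levels only.

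Adrb1, the beta-1 receptor, was high in the Gjd2 and Slc6a9 cells and low in the other 5 gates. Its level was 102.8 ± 19.8 counts per 1000000 UMIs (CPM, mean ± SD over 10 libraries) in the Gjd2 gate, with 73.7 in the lowest library, 99.4 at the median and 137.8 in the highest. In the Slc6a9 gate it was 73.6 ± 20.2 CPM, from 49.6 through a median of 72.4 to 115. That gate had 74.1 to 115 CPM in the libraries of batch 2 and 49.6 to 70.6 in those of batch 3. The Gad gate had 4.14 ± 1.06 CPM, from 1.96 through 4.19 to 5.59. No library of the Slc6a9 gate came near any library of the Gad gate, whereas the Gjd2 and Slc6a9 ranges overlapped. Within batch 3 these 2 did not overlap, as the Gjd2 gate had 97.2 to 138 CPM there. The Tac2 (4.23 ± 2.35 CPM), cholinergic (4.46 ± 4.00), Cartpt (6.91 ± 4.61) and Slc17a8 (8.36 ± 6.85) gates were also low. With the Gad gate, no neighbours among these 5 differed beyond their spread, but gates further apart in the order were not compared. Over summed counts, the Slc17a8 gate had 10.2 CPM (exact Poisson 95% interval 7.40 to 13.7) and the Cartpt gate 7.81 (5.85 to 10.2). Both intervals, which cover counting error only, lay above that of the Gad gate, at 4.21 (3.81 to 4.64). Those of the Tac2 (3.39 to 6.42) and cholinergic (4.05 to 8.58) gates overlapped it.

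The log2 change of Adrb1 between the Slc6a9 and Gad gates was 4.20 ± 0.10 (SE, edgeR quasi-likelihood test, Benjamini-Hochberg adjusted p = 7.64e-19), and 4.21 without the shared barcodes. Against all other cells, which had 8.88 ± 1.88 CPM (6.55 to 12.2), the Gjd2 gate was higher by 3.55 ± 0.11 on the log2 scale (adjusted p = 2.4e-16), and by 3.61 without the shared barcodes. The same contrast gave 3.28 in batch 2 and 4.06 in batch 3. Batch 1, with a single library, gives no value of its own here or below. Adrb1 was lower than in all other cells in the Tac2 gate (-1.91 ± 0.19, adjusted p = 5.81e-11), the cholinergic gate (-1.49 ± 0.27, adjusted p = 7.63e-05) and the Cartpt gate (-1.11 ± 0.21, adjusted p = 4.44e-05), each in 10 of 10 libraries with no overlap. In the Slc17a8 gate the change was -0.84 ± 0.24 (adjusted p = 0.00918) with overlap, and it was -0.56 in batch 2 alone, which missed the threshold, and -2.62 in batch 3 alone. For these gates, all other cells include the Gjd2 and Slc6a9 cells in which Adrb1 was high. None of their means was below that of the Gad gate (4.14 CPM).

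Inside the Slc6a9 gate, the cells that also passed the Gjd2 gate had 171 ± 24.9 CPM of Adrb1 (121 to 212) against 35.1 ± 15.2 (12.9 to 61.8) in the other Slc6a9 cells, and the ranges did not overlap. The change was 2.43 ± 0.13 (adjusted p = 1.15e-15), where 44.7% of genes tested were called (21.9% higher, 22.8% lower) and Adrb1 was the only receptor with enough counts. It was 1.99 in batch 2 and 2.97 in batch 3. Slc6a9 cells that also passed the Slc17a8 gate had less, at 14.5 ± 14.7 CPM (0 to 47.7) against 77.7 ± 20.4 (51.7 to 121), a change of -2.56 ± 0.32 (adjusted p = 7.02e-10) where 24.6% of genes were called (12.4% higher, 12.2% lower). Without the shared barcodes that change was -3.28. These ranges did not overlap either, but only 190 cells passed both gates, with 10 to 34 per library.

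Splits made after the values were seen, and so given with no test, place Adrb1 more narrowly. Gjd2 cells in neither the Gad nor the Slc6a9 gate had 94.2 ± 19.8 CPM, while the 222 Gjd2 cells inside the Gad gate had 7.39 ± 9.21. Slc6a9 cells with a UMI of Sct, the hormone secretin, had 170 ± 23.6 CPM (125 to 203, 634 cells) against 51.9 ± 19.5 (28.3 to 91.4) in those without, with no overlap. The Gjd2 gate held 51.7% of all Adrb1 UMIs with 8.83% of all UMIs, and the Slc6a9 gate held 40.5% with 9.79%. Adrb1 counts were low per cell, at 1.62 UMIs per positive cell of the Gjd2 gate and 6 at most.

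**Figure D1:**
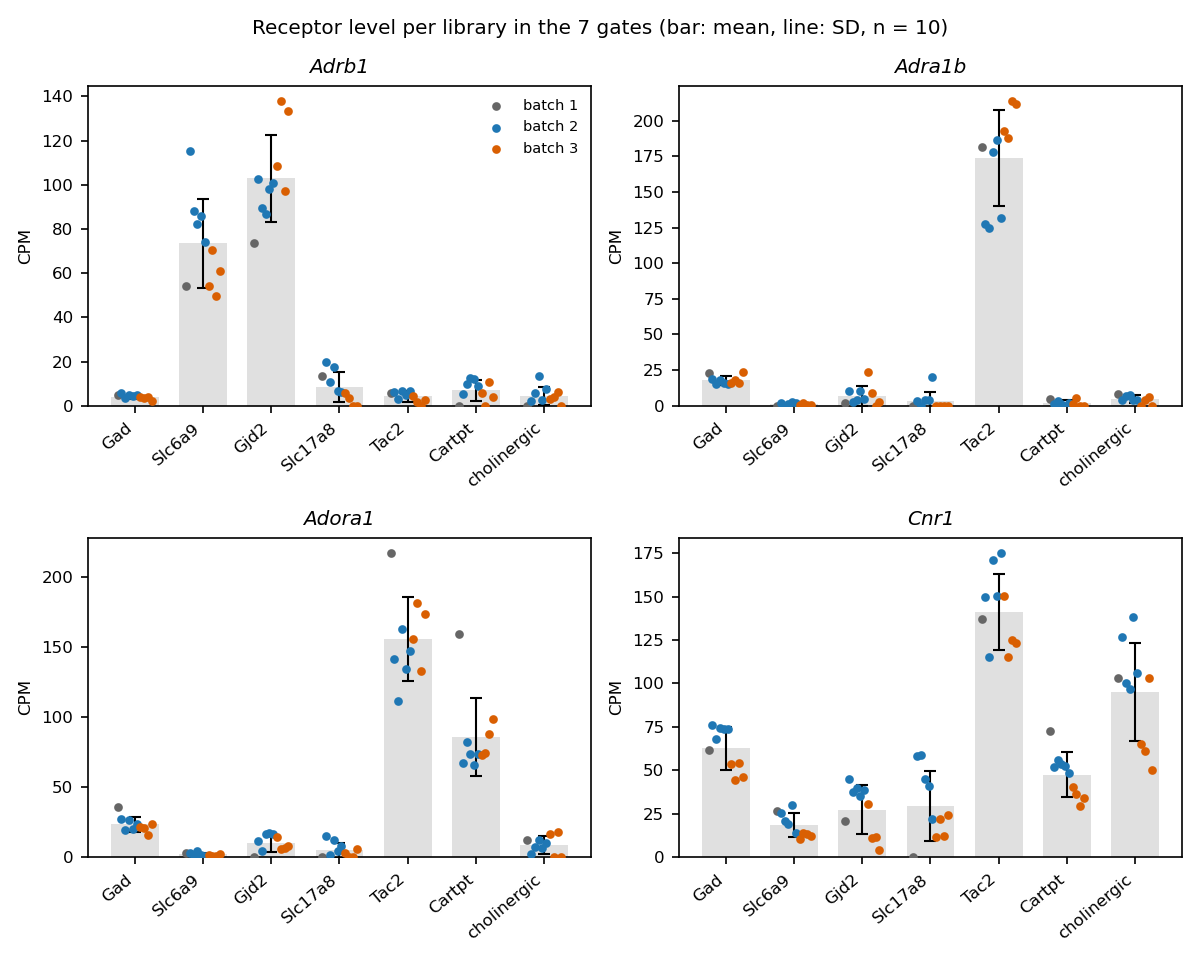
Levels of Adrb1, Adra1b, Adora1 and Cnr1 (CPM, vertical axis) in the 7 gates (horizontal axis), 1 point per library coloured by batch, with the mean as a bar and the SD as a line over 10 libraries. Adrb1 stands high in the Gjd2 and Slc6a9 gates (means 102.8 and 73.6), Adra1b in the Tac2 gate (174), Adora1 in the Tac2 and Cartpt gates (155.9 and 85.6), and Cnr1 has counts in every gate (18.6 to 141.2).

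Adra1b, the alpha-1B receptor, was concentrated in the Tac2 cells. Its level there was 174 ± 33.6 CPM, with 124.75 in the lowest library, 184.2 at the median and 213.5 in the highest. The Gad gate followed with 17.97 ± 3.10 CPM, from 14.9 through 17.1 to 23.9, and the Slc6a9 gate was lowest with 1.12 ± 0.94 CPM, from 0 through 0.978 to 2.45. The 3 ranges were fully apart. Means in the Gjd2 (7.06 ± 6.97 CPM), cholinergic (4.49 ± 2.88), Slc17a8 (3.17 ± 6.28) and Cartpt (1.86 ± 1.94) gates lay between those of the Gad and Slc6a9 gates, and their order was not resolved.

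All other cells had 5.06 ± 1.66 CPM of Adra1b (1.93 to 7.07), and the Tac2 gate was higher by 5.05 ± 0.13 on the log2 scale (adjusted p = 3.14e-28). Without the shared barcodes the change was 5.08. The 7 microglial markers summed to 0 to 116 CPM per library in this gate, and without the 648 cells with markers of other classes the change was 5.10. It was 4.65 in batch 2 and 5.85 in batch 3. Inside the Gad gate, where 42.4% of genes were called (22.0% higher, 20.3% lower) and 3 of 4 receptors tested were higher, Tac2 cells had 186 ± 40.7 CPM against 6.10 ± 2.06 in the rest, a change of 4.88 ± 0.12 (adjusted p = 3.83e-37). The Tac2 gate held 5.06% of all UMIs and 62.8% of the Adra1b UMIs.

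Adra1b was lower in the Slc6a9 gate than in the Gad gate by 3.93 ± 0.23 on the log2 scale (adjusted p = 3.1e-12), in 10 of 10 libraries. It was also lower in the Cartpt gate than in all other cells, with a change of -3.00 ± 0.32 (adjusted p = 4e-10), in the cholinergic gate (-1.40 ± 0.26, adjusted p = 9.87e-05) and in the Slc17a8 gate (-1.60 ± 0.37, adjusted p = 0.00133). In batch 3 the Slc17a8 gate held no Adra1b UMI in any of its 4 libraries. Inside the Gad gate the changes were -3.58 ± 0.36 for Cartpt cells (adjusted p = 8.56e-11) and -1.71 ± 0.28 for cholinergic cells (adjusted p = 1.14e-05). The Gjd2 gate gave -0.87 ± 0.29 (adjusted p = 0.0155), a call that was lost in batch 3 alone (-0.25) and grew with stricter gates (-2.21). The Gad gate and all other cells both include Tac2 cells, which hold most Adra1b UMIs. Gad cells outside the Tac2 gate had 6.10 ± 2.06 CPM, against 1.12 ± 0.94 in the Slc6a9 gate, a contrast that was not tested.

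Within the Tac2 gate Adra1b was highest in cells with Nos1, the neuronal nitric oxide synthase, and without Tac1, the substance P precursor. In this split, here and below, cells with Nos1 had a Nos1 UMI, and cells with Tac1 had at least 5 Tac1 UMIs. Cells counted as without Tac1 could thus hold some Tac1 UMIs, but fewer than 5. Tac2 cells with Nos1 and without Tac1 had 427 ± 72.4 CPM of Adra1b (296 to 495, 169 cells in 8 libraries). Tac2 cells with Tac1 and no Nos1 had 60.3 ± 21.6 (32.6 to 105, 333 cells), and those with neither had 82.6 ± 48.2 (0 to 154, 350 cells). The first range lay wholly above the other 2, which overlapped. The 43 cells with both genes, fewer than 10 in every library, had 168 CPM over their summed counts (exact Poisson 95% interval 136 to 206), below the 429 (402 to 457) of the cells with Nos1 alone. This split was made after the values were seen and is a description, and the cells with Nos1 were deeper, at a median of 12621 UMIs against 9645 and 6777.5. Whether depth had a part in the split was not tested.

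**Figure D2:**
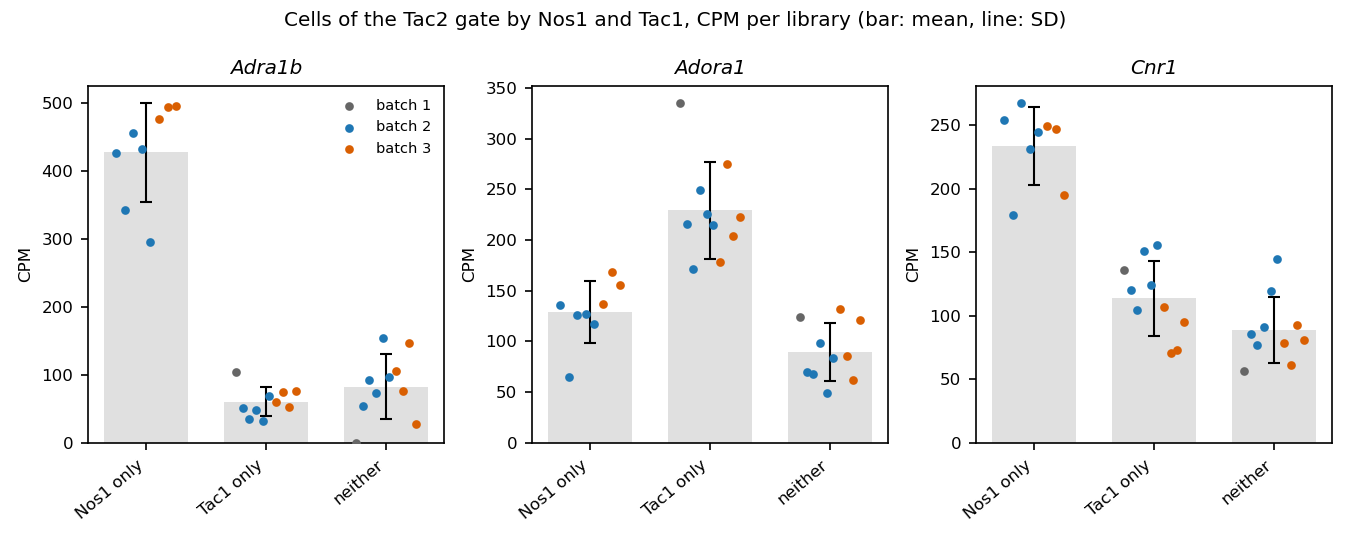
Levels of Adra1b, Adora1 and Cnr1 (CPM, vertical axis) in Tac2 cells with Nos1 and without Tac1, with Tac1 and no Nos1, and with neither (horizontal axis), 1 point per library with at least 10 such cells, coloured by batch, with the mean as a bar and the SD as a line. Cells with Tac1 had at least 5 of its UMIs. The 43 cells with both genes are not drawn. Of the groups drawn, Adra1b and Cnr1 were highest in the Nos1 cells (427 and 234 CPM) and Adora1 in the Tac1 cells (229 CPM).

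Adra1a, the alpha-1A receptor, was close to the limit of these libraries, with 112 UMIs in 108 of 32523 cells. Its mean was 0.650 ± 0.169 CPM over all cells, and no gate's mean was above 0.855 CPM. In the Slc17a8 gate it had 0 UMIs in all 10 libraries, which allows up to 0.854 CPM over the summed counts (upper end of the exact Poisson 95% interval, counting error only). No difference between gates could be shown at this depth.

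Adra2a, the alpha-2A receptor, was scarce and highest in the Tac2 cells. There it had 8.88 ± 3.65 CPM, from 1.62 in the lowest library through a median of 9.99 to 14.1, against 2.03 ± 0.831 in the Gad gate and 0.888 to 2.72 in the other 5. The Tac2 gate differed from the next gate, the cholinergic one, by more than the spread within libraries, and the other 6 were not resolved. Of the 356 UMIs of Adra2a, 22.8% came from the Tac2 gate. Tac2 cells with a Nos1 UMI had 17.0 ± 8.45 CPM and those without 5.72 ± 3.07, again a split made after the values were seen.

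Adra2c, the alpha-2C receptor, was low in all 7 gates, with means from 2.64 to 9.54 CPM. The Gjd2 gate had 9.54 ± 3.73 CPM (4.62, 10.5 and 13.8 in the lowest, median and highest library), and the Gad gate 9.50 ± 1.74 (6.10, 9.28 and 11.7). The lowest mean, 2.64 ± 2.11 CPM, was that of the Slc6a9 gate (0, 1.99 and 6.49), and its highest library overlapped the lowest of the Gad gate. No 2 neighbours in the order of the 7 gates were apart. The test of the Slc6a9 against the Gad gate gave a change of -1.62 ± 0.24 (adjusted p = 6.83e-06), and -1.65 without the shared barcodes. Changes of 0.34 in the Gjd2 gate, 0.25 in the Tac2 gate, -0.50 in the Slc17a8 gate and 0.12 in the Cartpt gate missed the threshold (adjusted p = 0.0795, 0.237, 0.257 and 0.727). The cholinergic gate gave -0.94 ± 0.33 (adjusted p = 0.0263), which DESeq2 did not call (-0.91, adjusted p = 0.0518) and which was -0.17 in batch 3 alone. In the cholinergic cells inside the Gad gate, where 38.3% of genes were called (17.8% higher, 20.5% lower) and 1 receptor was higher and 3 were lower, the change was -1.68 ± 0.39 (adjusted p = 0.000897), and -1.37 in batch 3 alone, where it missed the threshold. Inside single gates the receptor was uneven, in splits made after the values were seen. Tac2 cells with a Nos1 UMI had 24.3 ± 9.34 CPM (11.98 to 37.5) and those without 3.34 ± 2.94 (0 to 8.14), with no overlap. Gjd2 cells in the Gad gate had 23.9 ± 15.2 CPM (0 to 42.5) and those in the Slc6a9 gate 0.907 ± 1.25 (0 to 3.35), with overlapping ranges.

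**Figure D3:**
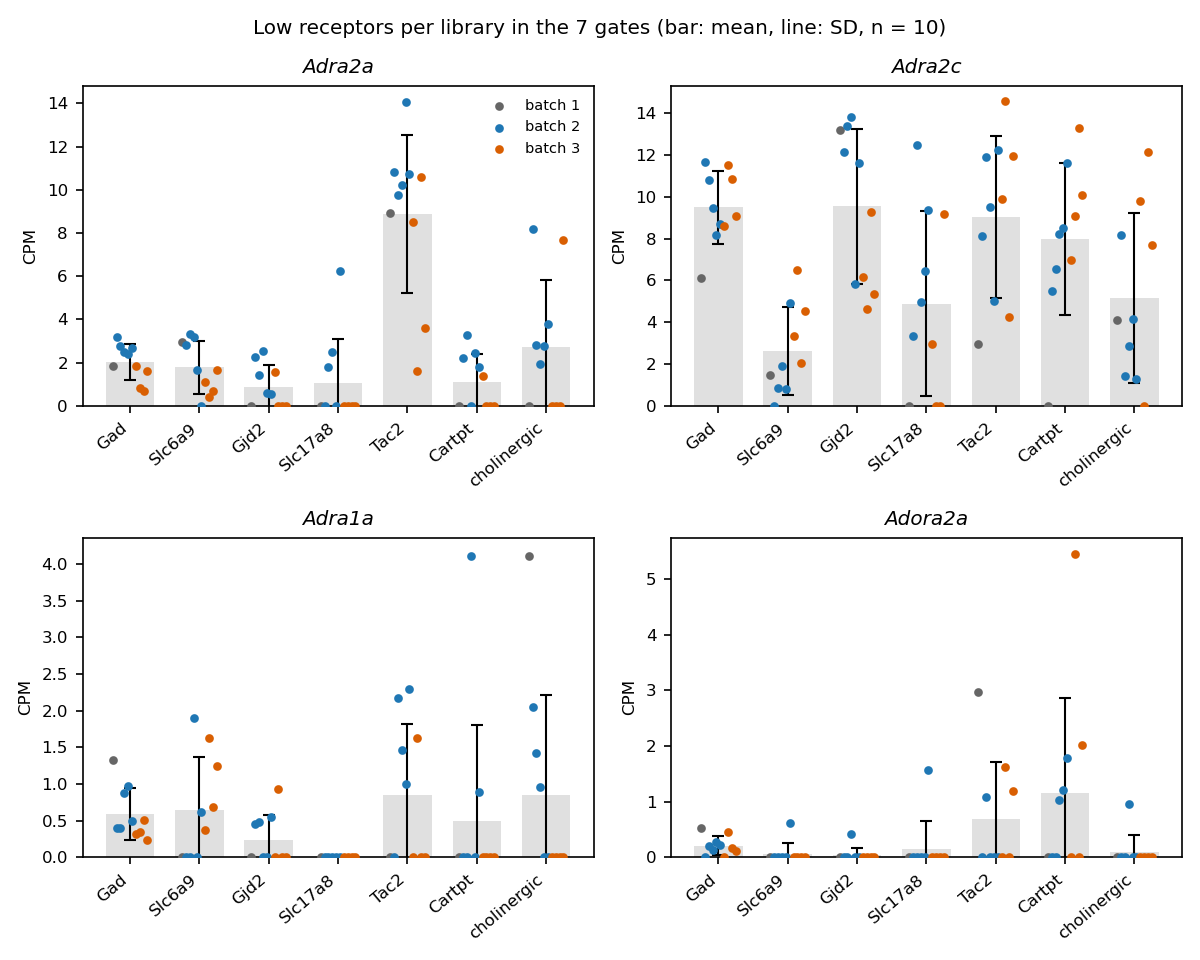
Levels of Adra2a, Adra2c, Adra1a and Adora2a (CPM, vertical axis) in the 7 gates (horizontal axis), 1 point per library coloured by batch, with the mean as a bar and the SD as a line over 10 libraries. Adra2a is highest in the Tac2 gate (mean 8.88 CPM), Adra2c is lowest in the Slc6a9 gate (2.64 CPM), and the means of Adra1a stay at or below 0.855 CPM.

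Adora1, the A1 receptor, was highest in Tac2 cells and second in Cartpt cells. The Tac2 gate had 155.9 ± 29.8 CPM, with 111.7 in the lowest library, 151.3 at the median and 217.4 in the highest. The Cartpt gate had 85.6 ± 27.8 CPM, from 65.7 through 74.2 to 159.5, where the top value was library 1 and the other 9 reached at most 98.8. In the Gad gate it was 23.6 ± 5.37 CPM, from 16.1 through 22.7 to 35.5. The Tac2 and Cartpt ranges overlapped through library 1 and both lay above the Gad gate. The Gjd2 (10.1 ± 6.04 CPM), cholinergic (8.54 ± 6.49), Slc17a8 (5.04 ± 5.31) and Slc6a9 (1.98 ± 1.14) gates were lower, and neighbours among these 4 did not differ beyond their spread.

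Against 11.0 ± 2.62 CPM in all other cells (7.42 to 14.6), the Tac2 gate was higher in Adora1 by 3.81 ± 0.09 on the log2 scale (adjusted p = 1.79e-28), with 3.81 also without the shared barcodes. The change was 3.53 in batch 2 and 4.33 in batch 3. For the Cartpt gate, with 15.6 ± 3.38 CPM in all other cells (10.4 to 20.5), the change was 2.43 ± 0.11 (adjusted p = 3.39e-21), or 2.48 without the shared barcodes, 2.14 in batch 2 and 2.79 in batch 3. Both changes held inside the Gad gate, at 3.57 ± 0.08 for Tac2 cells (163 ± 38.3 against 13.7 ± 3.03 CPM, adjusted p = 5.35e-38) and 2.13 ± 0.10 for Cartpt cells (88.3 ± 25.03 against 20.3 ± 4.77 CPM, adjusted p = 6.67e-21). The Cartpt comparison inside the Gad gate called 30.9% of genes (15.1% higher, 15.7% lower), with 1 receptor higher and 2 lower of 4 tested. The summed level of 11 bipolar markers was also highest in the Cartpt gate, at 505 to 856 CPM per library against 103 to 572 in the other gates, led by Car8. Car8 was not among the markers used to leave cells out. Without the 648 cells with at least 3 UMIs of the markers used for bipolar cells, Muller glia, microglia or vessels, the Cartpt change of Adora1 was 2.47.

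Adora1 was lower in the Slc6a9 gate than in the Gad gate by 3.59 ± 0.15 on the log2 scale (adjusted p = 1.85e-14), in 10 of 10 libraries with no overlap. It was lower than in all other cells in the Gjd2 gate (-0.70 ± 0.18, adjusted p = 0.00302), the cholinergic gate (-1.07 ± 0.25, adjusted p = 0.00103) and the Slc17a8 gate (-1.48 ± 0.26, adjusted p = 3.3e-05). The Tac2 and Cartpt gates held 42.0% and 16.9% of the Adora1 UMIs. Their cells are among all other cells here, and most of them are also in the Gad gate. Cells outside the Tac2 gate had 11.0 CPM, near the Gjd2 (10.1) and cholinergic (8.54) gates. No comparison left out both the Tac2 and the Cartpt cells. Cholinergic cells inside the Gad gate gave -1.24 ± 0.24 (adjusted p = 0.000131), and neither cholinergic change passed in batch 3 alone (-0.92 and -1.06). Among Tac2 cells Adora1 was highest in those with Tac1 alone. By the same split, cells with Tac1 and no Nos1 had 229 ± 47.9 CPM (172 to 335). Those with Nos1 and under 5 Tac1 UMIs had 129 ± 30.8 (65.3 to 169), and those with neither had 89.3 ± 28.6 (49.2 to 131). The first range lay above both others, which overlapped. The 43 cells with both genes had 132 CPM over their summed counts (103 to 166), near the cells with Nos1 alone. The Adora1 locus, chr1:134199223-134235431 on the minus strand, overlaps Mybph on the plus strand, which had 8 UMIs in all cells.

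Adora2a, the A2a receptor, had 29 UMIs in 26 cells, and 0.167 ± 0.110 CPM over all cells. Its highest mean was 1.15 ± 1.71 CPM in the Cartpt gate, where 1 library had 5.45 and the others 0 to 2.02. Like Adra1a it could not be compared between gates at this depth.

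Cnr1, the CB1 receptor, was found in every gate. The Tac2 gate had 141.2 ± 21.8 CPM, from 115.0 through a median of 143.5 to 175.2, and the cholinergic gate 95.04 ± 28.4, from 49.9 through 101.7 to 138.4. The Gad gate had 62.6 ± 12.2 CPM, from 44.7 through 64.9 to 76.0, and the Cartpt gate 47.5 ± 12.8, from 29.2 through 50.1 to 72.9. These 3 steps, from Tac2 to Cartpt, were apart within libraries, although the ranges of neighbouring gates overlapped. The Slc17a8 (29.5 ± 20.2 CPM), Gjd2 (27.5 ± 14.3) and Slc6a9 (18.6 ± 6.84) gates closed the order, and no neighbours from Cartpt onward were resolved.

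The Tac2 gate was higher in Cnr1 than all other cells (52.0 ± 11.9 CPM, 36.4 to 64.3) by 1.47 ± 0.07 on the log2 scale (adjusted p = 1.19e-19), with no overlap, and by 1.498 without the shared barcodes. It was 1.36 in batch 2 and 1.79 in batch 3. The cholinergic gate was higher than its own reference (55.3 ± 11.6 CPM) by 0.85 ± 0.08 (adjusted p = 1.64e-09) in 10 of 10 libraries, with overlapping ranges, and by 0.86 without the shared barcodes. Inside the Gad gate the changes were 1.41 ± 0.07 for Tac2 cells (148 ± 22.5 against 56.5 ± 11.9 CPM, adjusted p = 7.06e-24) and 0.75 ± 0.09 for cholinergic cells (adjusted p = 6.1e-08). The cholinergic change inside the Gad gate missed the threshold in batch 3 alone (0.57, adjusted p = 0.0864).

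Cnr1 was lower in the Slc6a9 gate than in the Gad gate by 1.80 ± 0.09 on the log2 scale (adjusted p = 3.13e-13), and in the Gjd2 gate (-0.96 ± 0.12, adjusted p = 9.17e-07) and the Slc17a8 gate (-0.78 ± 0.15, adjusted p = 0.000157) than in all other cells. The small change in the Cartpt gate, -0.22 ± 0.08 (adjusted p = 0.0328), missed the threshold without the shared barcodes (-0.16, adjusted p = 0.154) and was 0.01 with stricter gates. Among Tac2 cells, Cnr1 was at 234 ± 30.6 CPM (180 to 268) in those with Nos1 and under 5 Tac1 UMIs. It was at 114 ± 29.3 (70.9 to 156) in those with Tac1 and no Nos1 and 88.9 ± 26.3 (56.5 to 145) in those with neither. The first range lay above both others, and the 43 cells with both genes had 207 CPM over their summed counts (170 to 249). Slc6a9 cells that also passed the Gjd2 gate had 5.67 ± 5.28 CPM, against 24.1 ± 9.44 in the other Slc6a9 cells, given with no test since Cnr1 was under the filter there.

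**Figure D4:**
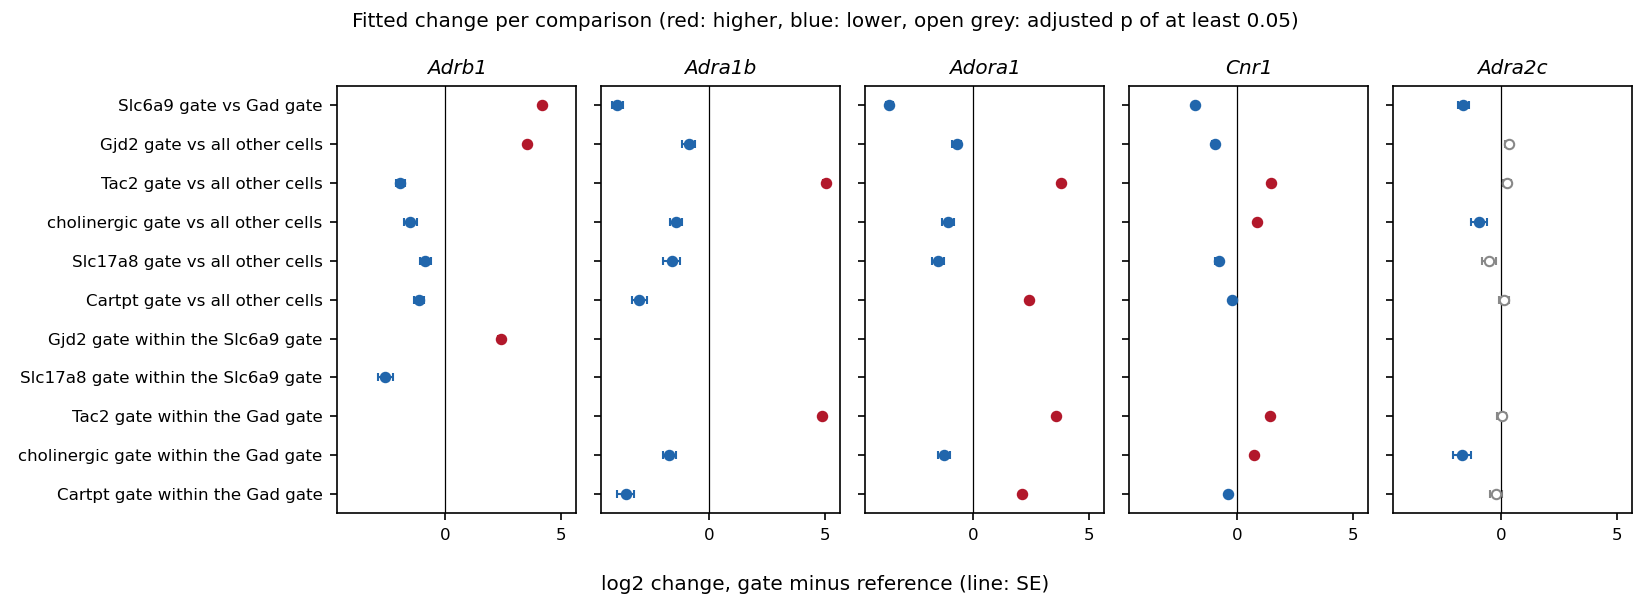
Log2 change with its SE (horizontal axis) of Adrb1, Adra1b, Adora1, Cnr1 and Adra2c in each comparison (vertical axis), from the edgeR fits over 10 libraries, with red for higher, blue for lower, open grey for changes that missed the threshold and no point where the counts were too low to test. Adrb1 rises in the comparisons for the Slc6a9 and Gjd2 gates (4.20 and 3.55) and Adra1b in the Tac2 comparisons (5.05 and 4.88), while Adra2c has its largest changes on the low side (-1.62 and -1.68).

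Depth differed between gates, with a median of 8825 UMIs per Tac2 cell and 3664 per Slc6a9 cell, against 4210 over all cells. Shares of cells with a transcript were therefore compared after thinning each cell to 2000 UMIs. Shallower cells were left out, which were 3.69% of Tac2 cells and 18.5% of Slc6a9 cells. Adra1b was then found in 19.9 ± 5.10% of Tac2 cells (38.3% before thinning), 1.90% of Gad cells (4.24%) and 0.163% of Slc6a9 cells (0.403%). Adora1 was found in 23.5 ± 5.92% of Tac2 cells (60.1%), 15.2 ± 7.23% of Cartpt cells (35.4%) and 0.548% of Slc6a9 cells (0.730%). These gates came in the same order by share as by CPM, and the Slc6a9 gate serves as the low reference for both genes. Adrb1 was found in 20.7 ± 4.71% of Gjd2 cells (49.0%), 10.7 ± 3.23% of Slc6a9 cells (19.1%) and 0.699% of Gad cells (2.37%). Cnr1 was found in 20.3% of Tac2 cells (58.7%), 16.6% of cholinergic cells (45.2%), 10.5% of Gad cells (24.1%) and 3.25% of Slc6a9 cells (5.60%). Where it was found in the Tac2 gate, Adra1b had 4.33 UMIs per positive cell and up to 24, against 2.60 for Adora1 and 2.47 for Cnr1.

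Whether the receptors were found in the same cells was described in the thinned cells. In the Tac2 gate, Cnr1 was found in 32.2% of the cells with Adra1b and in 20.4% of the rest. Adora1 was found in 25.1% of cells with Adra1b and 22.0% of the rest, and Cnr1 in 24.1% of cells with Adora1 and 22.3% of the rest. In the Slc6a9 gate, 3 of the 382 cells with Adrb1 had a Cnr1 UMI, or 0.785%, against 3.27% of the rest. In the Gjd2 gate the same pair showed no such gap, with Cnr1 in 12 of the 397 cells with Adrb1, or 3.02%, and in 3.18% of the rest. These are shares of cells pooled over libraries and carry no test.

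The receptors were then read across 20 panel gates, each on 1 further marker gene and overlapping the 7 gates, and ranked by the mean over libraries with at least 10 cells. The ranking took gates with at least 3 such libraries, and a gate on Sst, with 1, is not in it. Adrb1 was highest in the Sct gate, at 153 ± 48.7 CPM (96.2 to 262, 220 cells in 9 libraries), followed by Neurod2 (59.2 ± 11.9) and Lamp5 (48.6 ± 6.47). Adra1b was highest in the Nos1 gate, at 242 ± 77.7 CPM (113 to 337, 234 cells), with Crh (77.1 ± 79.5, 5 libraries) next. The 32 cells of the unranked Sst gate had more, at 377 CPM over their summed counts (315 to 448) against 228 (212 to 245) in the Nos1 gate. The Nos1 gate was also highest for Adora1 (84.2 ± 28.3 CPM, before Tac1 with 70.0 ± 11.1 and Pou3f3 with 55.6 ± 26.1) and for Cnr1 (171 ± 28.4 CPM, before Rgs5 with 114 ± 33.8 and Ghrh with 112 ± 25.6 in 3 libraries). Adra2c had its highest level in cells gated on Nefh, a neurofilament of large neurons, at 35.3 ± 8.76 CPM (24.5 to 54.1, 1524 cells), above each of the 7 gates. Vip cells followed with 15.2 ± 7.50 CPM.

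**Figure D5:**
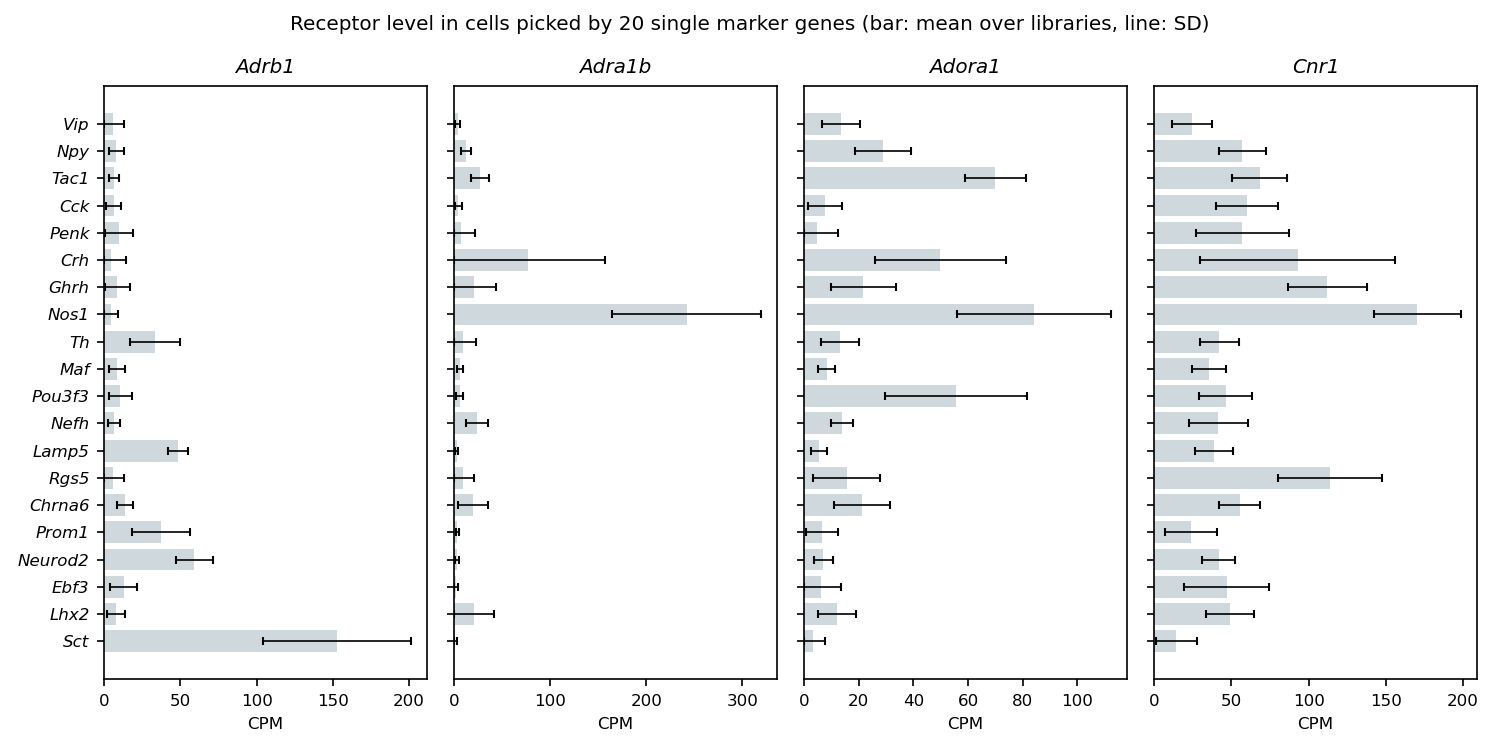
Mean level as a bar with the SD as a line (CPM, horizontal axis) of Adrb1, Adra1b, Adora1 and Cnr1 in 20 gates on single marker genes (vertical axis), over libraries with at least 10 cells in the gate. The Sct gate leads for Adrb1 (153 CPM) and the Nos1 gate for Adra1b, Adora1 and Cnr1 (242, 84.2 and 171 CPM).

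Over the 7 gates and the 20 panel gates, the genes whose levels were most like each receptor's were found by Pearson's r of log2(CPM + 5), among 8946 genes with a mean of at least 10 CPM. For Adrb1 they were Ptgis (r = 0.978), Mapk12 (0.978) and Fgf3 (0.972), and for Adra1b Cdhr1 (0.955), Elavl2 (0.943) and Eomes (0.942). For Adora1 they were Zwint (0.906), Ctxn1 (0.898) and Wbp4 (0.888), and for Cnr1 Cmas (0.879), Rab6b (0.873) and Dbndd2 (0.842). The 27 gates share cells and libraries, so these values describe likeness only.

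Between batches, the libraries of Cnr1 and Adra2a did not overlap. How many of all genes were apart in this way was not counted, so these 2 receptors cannot be called unusual. Summed over all cells, the level of Cnr1 in the 5 libraries of batch 2 was 67.0, 65.8, 65.9, 68.6 and 66.4 CPM. In the 4 of batch 3 it was 44.0, 39.7, 45.4 and 41.1 CPM. The batches did not overlap, and the single library of batch 1 had 60.9. The change from batch 2 to batch 3 was -0.60 ± 0.04 on the log2 scale (adjusted p = 8.88e-09), -0.58 without the shared barcodes and -0.52 in Gad cells alone. This comparison called 54.9% of 14123 genes (26.6% higher, 28.3% lower), and 3 of the 7 receptors tested were lower and none higher. Adra2a had 2.91, 2.56, 2.42, 2.22 and 2.67 CPM in batch 2 and 1.51, 0.917, 1.07 and 1.41 in batch 3, also without overlap, a change of -0.98 ± 0.18 (adjusted p = 0.000153). In Gad cells alone the change of Adra2a was -1.005.

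Adora1 was lower in batch 3 by 0.29 ± 0.09 on the log2 scale (adjusted p = 0.0143), with overlapping ranges (13.2 to 17.7 against 15.8 to 21.3 CPM). Its call was lost without library 9 (-0.24, adjusted p = 0.0504), without the shared barcodes (-0.25, adjusted p = 0.0637) and in Gad cells alone (-0.13). Without the deepest 5% of cells it was -0.90. Adra1a (-0.34), Adra1b (-0.08), Adra2c (-0.01) and Adrb1 (-0.14) missed the threshold, with adjusted p from 0.241 to 0.931. The share of Slc6a9 cells and the depth per cell given above move with the batch, and fewer cells of a type cannot be told apart from less RNA per cell in these sums.

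The genes around the receptors were read from fixed lists, by how many of the genes tested were higher or lower. Catecholamine genes were few, with 4 of 11 tested in each gate comparison with all other cells, and 3 of them were higher and none lower in the Cartpt gate (16.4% and 15.9% of all genes). The largest was Slc18a2, the vesicular monoamine transporter, at 42.0 ± 15.1 CPM in Cartpt cells against 4.83 ± 0.884 in all other cells (log2 change 3.21 ± 0.15). In the Slc6a9 against the Gad gate 1 of the 4 was higher and 3 lower (32.1% and 29.1% of all genes), among them Slc18a2 (-5.67 ± 0.38). Th, the enzyme of dopamine synthesis, was higher in Slc6a9 cells with Gjd2 than in those without, at 37.7 ± 14.4 against 4.53 ± 2.82 CPM (3.16 ± 0.23). In the Tac2 gate 2 of 4 were higher and none lower (23.0% and 25.3% of all genes), with Maoa, an enzyme that breaks catecholamines down, first (1.41 ± 0.09).

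For the Gs pathway of Adrb1, 8 of 25 cyclic AMP genes were higher and 11 lower in the Gjd2 gate, against 23.9% and 24.5% of all genes. Pde8b, a phosphodiesterase that breaks down cyclic AMP, was at 96.6 ± 15.5 CPM there against 13.3 ± 2.34 (log2 change 2.83 ± 0.11), and Adcy5, an adenylyl cyclase, at 51.6 ± 6.64 against 15.4 ± 2.52 (1.79 ± 0.07). Of 7 receptor kinases and arrestins, which switch such receptors off, 3 were lower and none higher in the Gjd2 gate, led by Grk5 (-1.78 ± 0.28) and Adrbk2 (-0.75 ± 0.13). In the Slc6a9 against the Gad gate, the other comparison where Adrb1 was higher, 3 of the 7 were higher and none lower, against 32.1% and 29.1% of all genes. Grk5 (0.75 ± 0.22) and Adrbk2 (0.60 ± 0.14) were among them, with overlapping ranges. That comparison had 10 of 25 cyclic AMP genes higher and 11 lower. The largest changes were those of the phosphodiesterases Pde2a (-3.31 ± 0.27), Pde1a (2.57 ± 0.15) and Pde8b (2.48 ± 0.08), the cyclase Adcy2 (-1.99 ± 0.12) and Ppp1r1b, the phosphatase inhibitor DARPP-32 (1.88 ± 0.17). Of the 11 G protein alpha subunits 1 was higher and 6 were lower, with Gnai2 changed most (-1.08 ± 0.06). In the Tac2 gate 6 of 11 G protein alpha subunits were higher and none lower, against 23.0% and 25.3% of all genes, with the Gi and Go subunits Gnai1 (0.65 ± 0.05) and Gnao1 (0.60 ± 0.03) first. Pde2a was also higher in Tac2 cells (2.31 ± 0.11). In the cholinergic gate Rapgef3, a cyclic AMP sensor also called Epac1, was at 20.5 ± 5.76 CPM against 0.673 ± 0.297 (4.85 ± 0.28).

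Around the adenosine receptors, 4 of 13 genes of adenosine and ATP handling were higher and 2 lower in the Tac2 gate (23.0% and 25.3% of all genes), where Adk, the kinase that removes adenosine, was at 52.9 ± 9.52 CPM against 114 ± 15.1 (-1.02 ± 0.07). In the Cartpt gate 2 were higher and 2 lower (16.4% and 15.9%), with the ATP channel Panx1 at 38.7 ± 8.79 against 15.5 ± 1.30 CPM (1.37 ± 0.11). In the cholinergic gate 3 were higher and 4 lower (16.8% and 18.0%), with the nucleoside transporters Slc29a2 higher (1.71 ± 0.20) and Slc29a1 lower (-1.45 ± 0.20). In the Slc6a9 against the Gad gate 5 were higher and 3 lower (32.1% and 29.1%), led by the ectonucleotidase Entpd3 (-2.34 ± 0.21) and by Enpp2, also called autotaxin (1.91 ± 0.11).

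Around Cnr1, the changes included that of Mgll, the lipase that breaks down the endocannabinoid 2-AG. It was higher in the cholinergic gate, at 307 ± 38.1 against 133 ± 15.0 CPM (1.35 ± 0.08), and lower in the Tac2 gate, at 56.6 ± 13.4 against 143 ± 13.2 CPM (-1.24 ± 0.07), although Cnr1 itself was higher in both. It was also higher in the Slc6a9 than in the Gad gate, at 251 ± 33.1 against 105 ± 7.32 CPM (1.29 ± 0.06). Larger changes in that comparison were those of Plcb1, a phospholipase C, at 15.1 ± 3.64 against 70.8 ± 6.84 CPM (-2.20 ± 0.08), and Napepld, an enzyme that makes anandamide, at 7.26 ± 1.68 against 17.9 ± 2.08 CPM (-1.31 ± 0.11). Mgll was lower in Slc6a9 cells with Gjd2 than in those without, at 42.8 ± 11.7 against 333 ± 34.2 CPM (-2.92 ± 0.10). Fabp5, a lipid carrier, moved the other way in the Tac2 gate (1.55 ± 0.04) and in the cholinergic gate (-1.36 ± 0.12). Of the 14 endocannabinoid genes tested, 4 were higher and 3 lower in the Tac2 gate (23.0% and 25.3% of all genes) and 5 higher and 3 lower in the cholinergic gate (16.8% and 18.0%). In the Slc6a9 against the Gad gate 7 were higher and 6 lower (32.1% and 29.1%). Between batches 7 of 15 were higher and 5 lower in batch 3 (26.6% and 28.3%).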

How the data were processed

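Single cells were measured with 10x Chromium 3′ v2 chemistry in 10 libraries. The deposited values are raw UMI counts per gene and cell, made with Cell Ranger 2.1.0 on genome build mm10, per the submitters' processing notes. They are whole numbers, and the counts were used as the authors deposited them, with no further removal of cells or doublets.

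Cells were gated as described above, and the UMIs of each gate were summed per library, with at least 10 cells of both groups required. Log2 changes came from edgeR 4.0.16, with TMM scaling and genes filtered by filterByExpr. Its quasi-likelihood test had the library as a block, since each library gives both groups, and p was adjusted by Benjamini-Hochberg over all genes tested (threshold 0.05). The SE is the change divided by the square root of its F value. Genes that set a gate were left out of the counts called. The batch comparison used libraries 2 to 10 with no covariate. Neighbouring gates were called apart where the mean within-library difference exceeded its SD. DESeq2 1.42.0 and R 4.3.3 were used for an alternative, and Python 3.11.15 for levels.

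The members, gene lists and tests were chosen with earlier results of these data known. Genes of the lists were named from the called changes of at least 2-fold between the Slc6a9 and Gad gates (at most 5 per list) and from the 2 largest called changes per list in other comparisons. Grk5 and Adrbk2 between the Slc6a9 and Gad gates were added after their values were seen. A few genes are not reported here. The edgeR fit was tested on simulated data. Alternatives were other scaling, no filter, no block, single batches, stricter gates and cells left out. The cells with shared barcodes were left out as an alternative chosen after seeing the data. Without strand information in the tables, overlapping genes are named. Intervals cover counting error only.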

Additional observations from a re-analysis of the deposited data

Results flagged for a closer look

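A batch difference was called in 7 of 49 contrasts of a receptor, by a test of batch 3 minus batch 2 on the log2 change itself. In each of the 7 the change was larger in batch 3. For the Tac2 gate against all other cells the difference was 1.21 for Adra1b (adjusted p = 7.79e-07), 0.82 for Adora1 (adjusted p = 3.52e-06) and 0.44 for Cnr1 (adjusted p = 0.0262), where 1.82% of all genes were called. For the Tac2 gate inside the Gad gate it was 1.01 for Adra1b (adjusted p = 0.00149), with 0.429% of genes called. For the Gjd2 gate it was 0.78 for Adrb1 (adjusted p = 3.62e-05, 8.07% of genes called), and inside the Slc6a9 gate 0.99 (adjusted p = 9.86e-05, 4.00% called). For the Cartpt gate it was 0.64 for Adora1 (adjusted p = 0.0457, 1.10% called). The makeup of the cells and their depth also differ between the batches, and their part was not tested.

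In 11 of 55 groups of 10 libraries, 1 library stood apart from the rest by its gap to the nearest other. The cutoff is passed in about 1 in 20 groups of normally distributed values. Scarce receptors, with many libraries at 0, do not have such values, so the count of 11 cannot be read against that rate. Adora1 in the Cartpt gate had 159 CPM in library 1, with 65.7 to 98.8 in the others. Adra1b had 23.9 CPM in the Gjd2 gate of library 7 (others 0 to 10.5) and 20.3 in the Slc17a8 gate of library 6 (0 to 4.31). The other 8 concern scarce receptors. Adra2a had 6.25 CPM in the Slc17a8 gate of library 6 (others 0 to 2.50). Adra1a had 4.11 CPM in the Cartpt gate of library 4 (0 to 0.895) and 4.12 in the cholinergic gate of library 1 (0 to 2.05). Adora2a had 5.45 CPM in the Cartpt gate of library 8 (0 to 2.02). It was seen in 1 library alone in the Gjd2 gate (0.419 CPM, library 4), the Slc17a8 gate (1.56 CPM, library 6), the Slc6a9 gate (0.612 CPM, library 6) and the cholinergic gate (0.957 CPM, library 4). Each of these values is 1 UMI in the whole gate, so its flag was certain in advance.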

How the results depend on the processing

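Of the changes called for a receptor, 441 recomputed values kept their direction and their side of the threshold, 23 lost the call and 1 changed sign, Cnr1 in the Cartpt gate with stricter gates (0.0062). The other sign changes were all in receptors that were not called. Adra2c gave -0.32 in batch 3 alone, -0.18 with stricter gates and -0.088 without the deepest 5% of cells in the Gjd2 gate, -0.19 without the deepest cells in the Tac2 gate, and -0.24 with stricter gates, -0.10 without cells with markers of other classes and -0.050 without cells with both Gad and Slc6a9 UMIs in the Cartpt gate. Inside the Gad gate it gave -0.019 with no filter, -0.045 in batch 2 alone and -0.59 without the deepest cells for Tac2, and 0.16 in batch 3 alone for Cartpt. Between batches it gave 0.05, 0.00083 and 0.066 without libraries 2, 3 and 7, 0.019 without cells with markers of other classes, 0.035 without the deepest cells and 0.089 in Gad cells, and Adra1b gave 0.22 in Gad cells and 0.021 without shared barcodes. Without the deepest cells Adra1b was lower in batch 3 (-1.24, adjusted p = 4.27e-07), and in Gad cells Adrb1 was (-0.49, adjusted p = 0.0394).

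Counts of genes called moved by over 1.5 times in 5 cases, to 1408 for the cholinergic gate and 1519 for that gate inside the Gad gate in batch 3 alone (from 3966 and 4013), to 1903 for Gjd2 inside Slc6a9 with stricter gates (from 3199), to 2396 for Slc17a8 inside Slc6a9 with no filter (from 1387) and to 2861 for Tac2 inside Gad without the deepest cells (from 4446). Adra1b was found in 14.6% of Tac2 cells at 1500 UMIs. Stricter gates left no library for Slc17a8 inside Slc6a9. Both groups of a gate comparison come from the same library, so the main fit holds the library block. With no replicate block, Cnr1 in the Cartpt gate lost its call against all other cells (-0.18, adjusted p = 0.408) and inside the Gad gate (-0.33, adjusted p = 0.0718), and no other receptor did. The number of genes called without the block was 5877 for Slc6a9 against Gad. Leaving out each library in turn, the batch comparison called 7077 to 7713 genes and gave -0.63 to -0.57 for Cnr1, -1.11 to -0.85 for Adra2a and -0.38 to -0.24 for Adora1. The cause of these shifts was not tested.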

Other observations

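Receptors of the same families outside the 8 were read in the same gates. Adra2b, the alpha-2B receptor, lay in the Cartpt cells, at 45.8 ± 10.5 CPM (SD, n = 10 libraries), from 27.8 in the lowest through a median of 48.9 to 56.0 in the highest library. All other cells had 0.257 ± 0.113 CPM, and the change was 7.42 ± 0.19 on the log2 scale (edgeR quasi-likelihood test, adjusted p = 5.54e-29). The Cartpt gate held 301 of its 344 UMIs. Adora2b, the A2B receptor, was higher in the cholinergic gate, at 9.90 ± 3.53 against 4.30 ± 0.485 CPM (1.27 ± 0.25, adjusted p = 0.000172, overlapping ranges), and lower in the Slc6a9 than in the Gad gate (-2.92 ± 0.31, adjusted p = 4.6e-08). Others were near the limit of the libraries, with 5 UMIs of Adra1d, 59 of Adrb3, 3 of Adora3, 22 of Cnr2 and 5 of Gpr55 in all cells.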
